A study of Mus musculus with 9 samples.

Results

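The comparison is of mouse mast cells that had been loaded with IgE and then given antigen with mast cells left untreated, across all genes of the deposited expression table. A gene entered if it reached 1 FPKM (fragments per kilobase, a read density corrected for transcript length and library size) in at least 3 of the 6 libraries compared, which took in 10808 of 23951 gene symbols. The rule read only the level of a gene and not its direction. It let in 197 genes through the antigen libraries alone and 257 through the untreated libraries alone. At its edge, BC024978 was just inside, with 1.0005 FPKM in the lowest of its 3 highest libraries, and Hlx just outside, with 0.9994.

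The cells were bone marrow-derived mast cells of wild type C57BL/6 mice, kept for 4 to 6 weeks with IL-3 and SCF (stem cell factor, the ligand of Kit), each at 10 ng/ml. By the labels, over 95% of the cells were positive for the IgE receptor FcER1 and for CD117, the product of Kit. All groups had these cytokines. The untreated group had 3 libraries. The antigen group had 3 libraries of cells that took up IgE against the hapten DNP (0.5 ug/ml, 18 h) and were then given DNP-BSA (50 ng/ml, 2 h), a carrier protein with many haptens that cross-links the bound IgE. The remaining group of 3 libraries had the same IgE and no antigen, and its levels are set beside those of the pair compared. The untreated and antigen groups differed by both IgE and antigen, and the 2 cannot be told apart within the comparison. The comparison of IgE alone with untreated shares the untreated libraries. The labels do not state whether replicates are separate cultures or animals, so p-values here reflect only the spread among these libraries, which may be technical.

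Mast cells hold IgE on the high-affinity receptor FceRI, which is built from an alpha chain that binds IgE, a membrane-spanning beta chain and a pair of gamma chains that carry the signalling motifs. When antigen bridges the bound IgE, the kinases Lyn and Syk phosphorylate the receptor and the adaptor Lat, calcium enters the cell, and granules with histamine, proteases and proteoglycan are released within minutes. Over the next hours the cells make lipid mediators, cytokines and chemokines, through NFAT, NF-kB and AP-1 acting on their genes. RNA levels at 2 h are read in bulk, so that fewer cells of a type and less RNA per cell cannot be told apart.

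Low FPKM values move in steps worth 1 read, and these steps put the depth of the untreated libraries at 29.8 to 33.5 M reads (M for mega) and that of the antigen libraries at 20.8 to 28.7 M. By these estimates the antigen libraries were the shallower ones. At 20.8 M reads counting alone gives a coefficient of variation of 15.5% to a transcript of 2 kb at 1 FPKM and 4.903% at 10 FPKM. Between 10190 and 10645 genes per library were at 1 FPKM or above. The lowest count was that of antigen replicate 3, in which X and Y genes were listed at 0, and the other antigen libraries had 10500 and 10507. Replicates of these groups were spread 1.21 to 1.41 times as widely as counting alone would spread them, and those of the IgE group 1.19 to 1.78 times, with IgE replicate 3 the farthest from the others, so each pair differed by more than sampling noise. The first principal component held 90.1% of the variance among the 6 libraries and separated the groups. In antigen replicate 3 all 337 tested genes of the X and Y chromosomes were listed at 0, and these values were treated as missing, which leaves n = 2 for the antigen group at those genes. Of 14 genes that define mast cells, 12 were tested, among them Kit, Fcer1a, Tpsb2 and Srgn at high levels. Cpa3 and Cma1, which encode the mast cell carboxypeptidase and chymase, were listed at 0 in every library, which in a table without counts can be a failed estimate.

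Antigen-treated cells differed from untreated cells at most genes, mostly by small amounts. By limma on log2(FPKM + 1), 4426 genes were higher (41% of those tested) and 3975 lower (36.8%) at an adjusted p under 0.05, together 77.7%. The median size of the difference over all tested genes was 0.34 on the log2 scale, and the median signed difference was 0.02. Large differences were more often rises. On the scale of log2(FPKM + 1), on which all counts past a fold are made, 826 genes rose 2-fold or more (7.64%) and 400 fell (3.7%). This scale understates the change of low genes, and with a pseudocount of 0.1 in place of 1 the counts were 974 and 707. On the same scale, 190 rose 4-fold or more (1.76%) and 32 fell (0.296%), and past 8-fold there were 49 rises and 1 fall, that of the microRNA gene Mir8104, named here after its value was seen, while more genes fell past 8-fold by the ratio of their means. The 3 libraries of a group lay wholly above or below those of the other at 8621 genes (79.8%), of which 8269 were also called. Genes that rose 2-fold or more on the autosomes (808) took up 4.098% ± 0.128 of the summed autosomal FPKM in the untreated libraries and 11.4% ± 0.279 in the antigen libraries (SD, n = 3). Those that fell 2-fold or more (388) went from 1.94% ± 0.0649 to 0.597% ± 0.0181. Both sets were picked by their difference between these same libraries. The direction of the shifts thus follows from the choice, and only the shares themselves are descriptive. The balance of small calls rests on the scaling between libraries: higher genes were 52.7% of the calls on the deposited scale, 47.6% with median centring and 43.3% with quantile normalization, which turned 206 calls to the opposite direction. Differences in the text are on the deposited FPKM scale unless another is named, log2 differences are of FPKM + 1, folds are ratios of group means, and rose and fell are used of called genes.

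**Figure D1:**
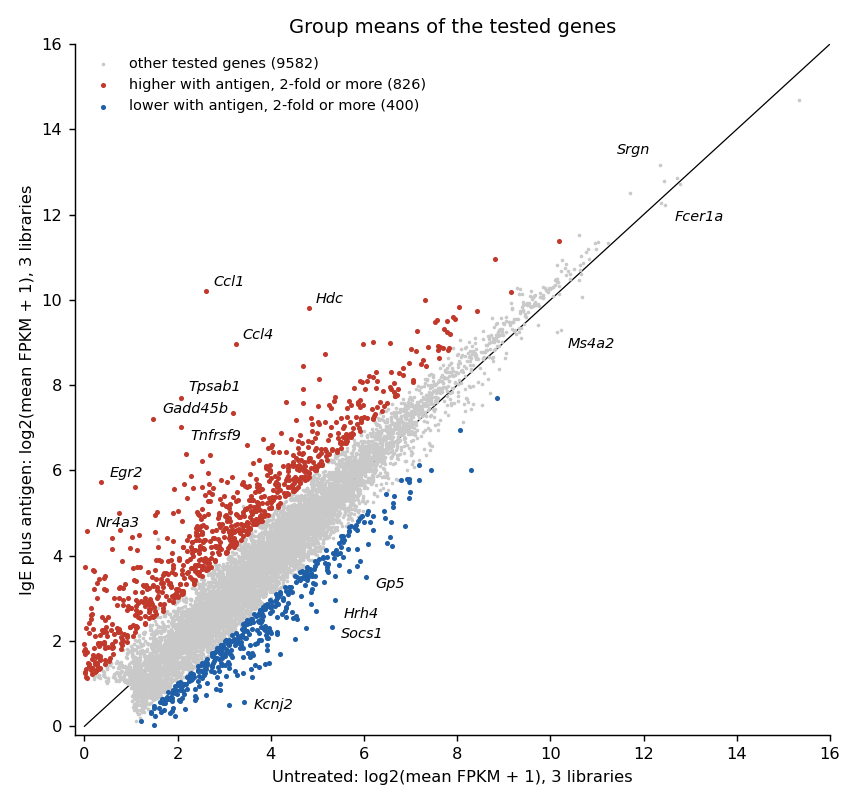
Mean FPKM of each tested gene in the untreated libraries (x axis) and in the libraries with IgE plus antigen (y axis), both as log2(FPKM + 1). The means are over 3 libraries, or 2 antigen libraries for X and Y genes. Red points are the 826 genes called higher by 2-fold or more, blue points the 400 called lower by 2-fold or more, and grey points the other tested genes; the line marks equal means.

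The largest rises were in a chemokine, a stress-signalling protein, a further chemokine and a tryptase gene. Ccl1, a chemokine that attracts T cells through the receptor CCR8, was at 3.91, 5.21 and 6.25 FPKM in the untreated libraries, 2.62, 3.57 and 4.56 with IgE alone and 1255, 1106 and 1163 with antigen. The antigen libraries stood far above all others, at 229 times the untreated mean (log2 difference 7.60, SE 0.12, adjusted p = 2.28e-10). Gadd45b, a small protein that binds kinases of the p38 and JNK pathways, was at 1.72, 1.42 and 2.21 FPKM untreated, 1.56, 2.16 and 1.11 with IgE and 148, 148 and 148 with antigen, a rise of 82.95-fold. Its 3 antigen values agreed to the unit printed, while the other 6 libraries stayed near the filter. Ccl4, a chemokine for T cells and monocytes, went from 7.802, 7.98 and 9.66 FPKM to 513, 500.1 and 474, 58.4-fold, with 6.68, 7.96 and 7.76 under IgE alone. Tpsab1, a gene of the tryptase family that RefSeq annotates as a transcribed pseudogene in the mouse reference genome, was at 2.76, 3.32 and 3.53 FPKM untreated and 206, 203 and 213 with antigen. Its relative Tpsb2, which encodes a tryptase of the granule, was at 6729, 6389 and 6922 and 7531, 7219 and 7510.4 FPKM and was not called (adjusted p = 0.166). How reads that fit both genes were counted is not given.

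Hdc, the enzyme that makes histamine from histidine, was at 25.9, 27.2 and 28.3 FPKM in the untreated libraries and 919, 863 and 902 with antigen, a rise of 32.97-fold from a level that was already well above the filter. IgE alone gave 30.3, 28.7 and 27.1 FPKM, within or just above the untreated range. Egr2, a zinc finger transcription factor of the immediate early class, went from 0.208, 0.2997 and 0.335 to 52.7, 49.9 and 53.3 FPKM. The orphan nuclear receptor gene Nr4a3 went from 0, 0.0539 and 0.04797 to 22.8, 23.5 and 22.8 FPKM. Both were near 0 without antigen, so that no fold is given. Tnfrsf9, the costimulatory receptor 4-1BB, rose 39.9-fold from 3.21 ± 0.269 to 128 ± 1.18 FPKM (SD, n = 3), and Tnfrsf12a, the receptor of the cytokine TWEAK, rose 42.2-fold to 47.7 ± 2.05 FPKM. Tnip3, a partner of the NF-kB inhibitor A20, was at 0.712, 0.69997 and 0.622 FPKM untreated and 31.1, 30.5 and 31.5 with antigen. Dusp5, a phosphatase of nuclear ERK, rose 23.6-fold to 82.6 ± 3.899 FPKM, and Nfkbid, a nuclear IkB protein, rose 19.9-fold to 161 ± 0.474 FPKM. In these 12 genes, which the rule chose without overlap with the untreated libraries, no antigen library overlapped an IgE library either.

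**Figure D2:**
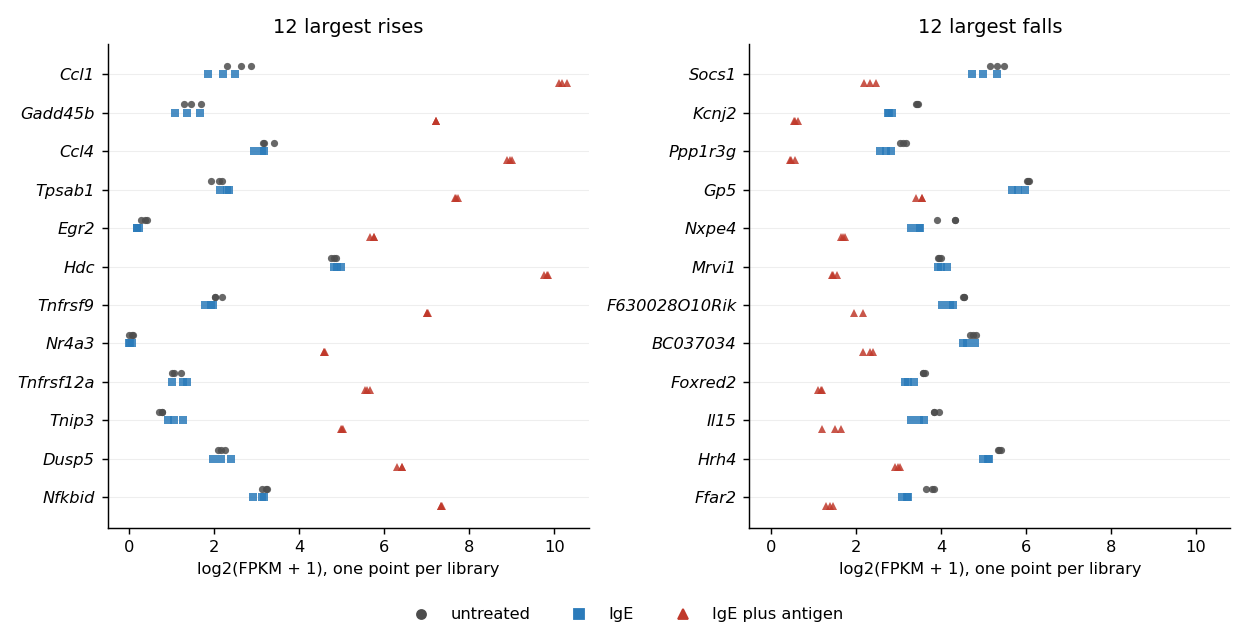
FPKM of the 12 genes with the largest rises (left) and the 12 with the largest falls (right), as log2(FPKM + 1) on the x axis, with 1 point per library; circles are untreated, squares IgE alone and triangles IgE plus antigen. The antigen points lie apart from those of the other groups in all 24 genes, and F630028O10Rik, an X chromosome gene, has 2 antigen points.

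The largest falls were in a signalling inhibitor, a potassium channel and several surface proteins. Socs1, which blocks JAK kinases, was at 34.4, 43.6 and 38.5 FPKM untreated, 25.4, 30.6 and 38.8 with IgE and 3.999, 4.52 and 3.56 with antigen, a fall to a level 9.64 times lower (log2 difference -2.98, SE 0.092, adjusted p = 7.84e-09). Kcnj2 encodes a potassium channel of the inward rectifier type and fell 20.2-fold, from 9.64, 9.81 and 9.93 FPKM to 0.441, 0.534 and 0.477, and stood between them with IgE alone, at 6.15, 5.67 and 5.83. Ppp1r3g, a subunit that directs protein phosphatase 1 to glycogen, fell 18.7-fold, from 7.53 ± 0.414 to 0.402 ± 0.0586 FPKM. Gp5, a subunit of the platelet receptor for von Willebrand factor, fell from 65.1, 63.5 and 66.4 to 9.62, 10.6 and 10.6 FPKM. Hrh4, the histamine H4 receptor, fell 5.905-fold, from 39.7, 39.95 and 41.6 to 6.53, 6.89 and 7.13 FPKM, while Hdc rose. Il15, a cytokine for natural killer and memory T cells, was at 13.3, 13.1 and 14.5 FPKM untreated and 2.12, 1.301 and 1.84 with antigen. Ffar2, a receptor for short-chain fatty acids, fell 7.82-fold, and its level with IgE alone (7.97 ± 0.422 FPKM) was already below the untreated one (12.5 ± 0.966 FPKM). The other members of the 12 were Nxpe4, Mrvi1, BC037034, Foxred2 and F630028O10Rik, with log2 differences of -2.50, -2.48, -2.45, -2.43 and -2.48. Mrvi1 encodes a protein of the calcium store that is a target of cyclic GMP-dependent kinase, and its untreated (14.5, 14.9 and 14.2 FPKM) and IgE (15.1, 14.3 and 16.7 FPKM) libraries overlapped.

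The start regions of some of the genes that rose held AP-1 or NF-kB motifs, and stretches of these are shown because both factors act downstream of the IgE receptor. The sequences come from RefSeq on GRCm38.p6, while the expression values were mapped to mm9, so the coordinates belong to the former. Each stretch is the strand that the gene is read from, ends before the start of transcription, and carries the match in capitals with up to 35 bases on each side. The letters searched were TGANTCA for AP-1, and the kB consensus by name, on both strands. The genes are the largest rises among the named ones with a match found before the start. Of the 12 largest rises, Tnip3 alone was found with one, and the search was carried on past these 12 after their values were seen. The motif sets held only genes with 1 RefSeq window, 117 of the 190 that rose 4-fold or more. A gene without a match found may thus not have been searched.
Tnip3: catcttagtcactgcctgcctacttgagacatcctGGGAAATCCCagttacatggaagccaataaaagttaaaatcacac
Tnfsf14: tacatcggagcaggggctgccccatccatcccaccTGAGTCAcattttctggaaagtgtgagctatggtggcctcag
Olr1: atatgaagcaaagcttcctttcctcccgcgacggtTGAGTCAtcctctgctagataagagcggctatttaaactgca
Srxn1: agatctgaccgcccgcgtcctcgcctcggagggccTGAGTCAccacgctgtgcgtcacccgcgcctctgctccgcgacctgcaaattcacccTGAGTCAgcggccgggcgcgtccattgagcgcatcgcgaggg
Il1a: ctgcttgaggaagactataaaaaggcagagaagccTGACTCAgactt
Pdcd1lg2: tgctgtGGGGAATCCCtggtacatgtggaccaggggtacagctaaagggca

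The Tnip3 stretch lies at chr6:65590309-65590388 on the plus strand, and its kB match begins 54 bases before the start. For Tnfsf14, the ligand LIGHT, it is chr17:57194300-57194376 on the minus strand, with the AP-1 match 160 bases before the start. For Olr1, a scavenger receptor of the C-type lectin family, it is chr6:129507184-129507260 on the minus strand, with the match 60 bases before the start. For Srxn1, the enzyme sulfiredoxin, it is chr2:152105387-152105520 on the plus strand, with matches 102 and 45 bases before the start. For Il1a, interleukin-1 alpha, it is chr2:129309973-129310019 on the minus strand, with the match 12 bases before the start, and for Pdcd1lg2, the ligand PD-L2, it is chr19:29410669-29410719 on the plus strand, with the kB match 244 bases before the start. All 6 stretches lie before the annotated transcription start. Tnfsf14 was at 24.2, 24.3 and 25.9 FPKM untreated and 357, 347 and 336 with antigen, Srxn1 at 33.2, 34.4 and 36.1 and 421, 424 and 428, and Pdcd1lg2 at 3.01, 2.98 and 3.11 and 32.2, 31.6 and 32.98. All 3 genes were thus well above the filter before antigen, and rose 13.98-fold, 12.3-fold and 10.6-fold.

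Over windows of 300 bases (250 before and 50 after the start), 6940 tested genes had 1 RefSeq window. The AP-1 letters were in 13.7% of the windows of the 117 such genes that rose 4-fold or more, in 7.63% of the 498 that rose 2-fold or more, in 4.66% of the 236 that fell 2-fold or more and in 4.64% of all tested, and in 7.98% of all 22862 single RefSeq windows. The kB consensus was in 9.40%, 7.23%, 4.66% and 4.83%, and in 4.26% of all RefSeq windows. TATAAA, searched on the gene's strand only, was in 10.3%, 5.62%, 5.08% and 4.45%, and in 9.49% of all RefSeq windows. The cyclic AMP element TGACGTCA was in 1.71% of the genes that rose 4-fold or more and in 3.57% of all tested, and the GC box GGGCGG in 68.4% and 67.2%. The EGR motif GCGNGGGCG was in 11.97% and 10.7%, and the E2F motif TTTNNCGC in 8.55% and 9.88%. EGR and GC box letters can overlap. The genes of the 4-fold set with a kB match were Tnip3, Fosb, Pdcd1lg2, Ramp3, Nfkbia, Bcl3, Mdfic, Nxn, Il6, Sqstm1 and Ptpn3. A match is a description of these letters and not a bound site.

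Most of the tested cytokine and chemokine genes rose. Of 39 secreted cytokine genes listed, 18 were tested, 14 rose and 3 fell, with a median log2 difference of 1.13 beside 0.02 for all tested genes, where 41% rose and 36.8% fell. 3 of the tested passed the filter through the antigen libraries alone and had to be higher there. Of the 15 at 1 FPKM in all 6 libraries, 11 rose and 3 fell, with a median of 1.05. Il13, a cytokine of allergic inflammation, was at 2.199, 3.52 and 2.699 FPKM untreated, 1.52, 1.81 and 1.19 with IgE and 50.2, 45.2 and 43.96 with antigen, 16.5-fold higher. Pdgfa, a growth factor for stromal cells, rose 14.7-fold, from 5.72, 5.76 and 5.02 to 78.1, 86.6 and 78.1 FPKM. Il1a rose 11.3-fold, from 2.75 ± 0.145 to 30.99 ± 0.797 FPKM. Il6 had the highest level of these, 33.9, 41.3 and 36.2 FPKM untreated and 188, 186 and 183 with antigen. Il4, a cytokine that drives IgE switching, was at 12.1, 12.8 and 13.7 FPKM untreated and 18.8, 19.97 and 15.6 with antigen, a rise of 1.41-fold with non-overlapping groups. Csf1, Tgfb1, Csf2 and Vegfa rose as well, with log2 differences of 1.79, 1.63, 1.21 and 1.05. Osm and Ebi3 fell beside Il15, with differences of -1.95 and -0.53. Lif, at 11.4 ± 0.299 FPKM untreated and 10.8 ± 0.467 with antigen, was not called. Several cytokines that mast cells are known to make stayed under the filter: with antigen Il3 was at 0.05302, 0.0632 and 0 FPKM, Il5 at 0, 0 and 0.0472 and Il9 at 0.284, 0.226 and 0.166. Il33 was at 0, 0.0262 and 0 FPKM untreated and 0.609, 0.559 and 0.667 with antigen.

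Of 32 chemokine genes listed, 13 were tested, 10 rose (9 of them 2-fold or more) and 2 fell, with a median log2 difference of 1.33. 3 passed through the antigen libraries alone and had to be higher there. Of the 8 at 1 FPKM in all 6 libraries, 7 rose and 1 fell. Ccl2, which draws monocytes through CCR2, was at 216, 221 and 251 FPKM untreated and at 601, 553 and 617 with antigen, 2.58-fold higher. Ccl3, a CCR1 ligand, rose 8.93-fold, from 30.1, 31.6 and 33.5 to 279, 279 and 292 FPKM. Ccl7 rose 14.7-fold, from 3.24, 4.08 and 2.89 to 49.8, 51.3 and 48.8 FPKM, and stood between these with IgE alone, at 7.19, 6.49 and 6.05. Cx3cl1 rose by 3.46 and Ccl24, Ccl5 and Ccl9 by 1.33, 1.21 and 1.07 on the log2 scale. Ccl6 and Ccl27a fell (-0.38 and -0.65), and Ccl17 was not called (0.29). The neutrophil chemokines Cxcl1 and Cxcl3 were listed at 0 in every library, and Cxcl2 was at 0.399, 0.381 and 0.384 FPKM with antigen. The tested autosomal chemokines together made up 0.156% ± 0.00398 of the summed autosomal FPKM in the untreated libraries, 0.159% ± 0.0048 with IgE and 0.566% ± 0.0198 with antigen.

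Among ligands and receptors of the TNF superfamily, 21 of 37 were tested, 14 rose and 5 fell (median 0.52). Tnf itself was at 1.67, 1.97 and 1.97 FPKM untreated, 4.37, 4.87 and 4.23 with IgE alone and 28.98, 30.01 and 30.4 with antigen, so that the 3 groups lay in steps without overlap. The death receptor Fas and the TNF receptor Tnfrsf1b rose by 2.56 and 2.54. Tnfsf10 (TRAIL) and Tnfsf4 (OX40 ligand) rose by 1.63 and 1.31. Ngfr, Tnfrsf21 and Tnfrsf13b fell (log2 differences of -1.56, -1.46 and -1.11). Rises in the family were thus found among both ligands and receptors, and the falls of 2-fold or more were all in receptors.

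**Figure D3:**
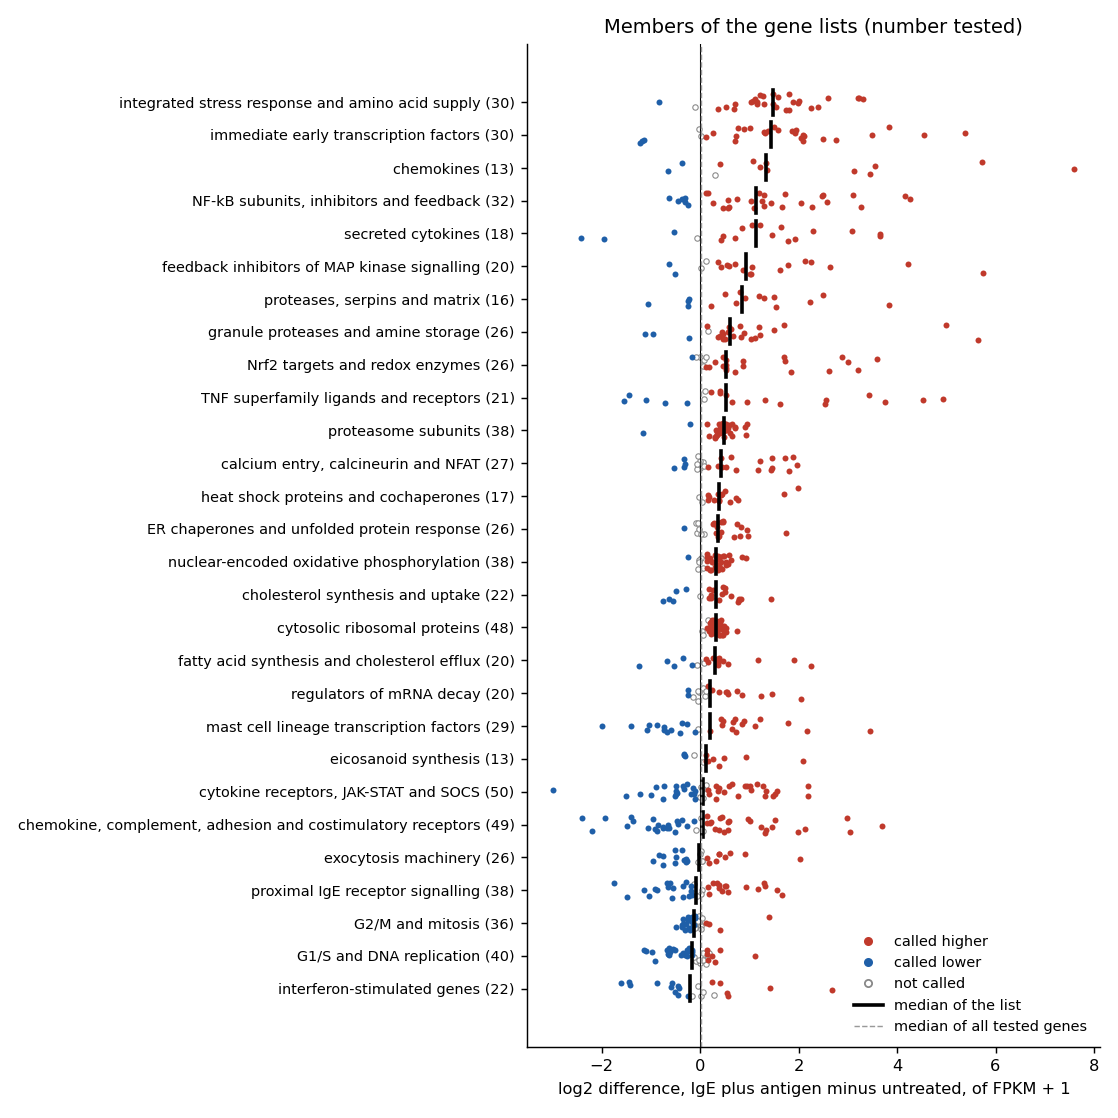
Log2 difference of each tested member of 28 gene lists (y axis, ordered by median; the number tested is in parentheses) between IgE plus antigen and untreated libraries. Red and blue points were called higher and lower, open points were not called, the thick bar is the list's median and the dashed line the median of all tested genes (0.02). The stress response, immediate early, chemokine, NF-kB and cytokine lists have medians above 1. Those of the interferon, G1/S, G2/M, receptor-proximal and exocytosis lists are below 0, the last 2 by little (-0.09 and -0.02).

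Immediate early transcription factors, which are switched on without new protein, were higher in most cases. Of 36 listed, 30 were tested, 25 rose (19 of them 2-fold or more) and 3 fell, with a median of 1.44. Of the 30, 7 passed through the antigen libraries alone and had to be higher there, and 2 through the untreated libraries alone and had to be lower with antigen. Of the 21 at 1 FPKM in all 6 libraries, 18 rose and 1 fell. Egr3 was at 0.646, 0.849 and 0.613 FPKM untreated and 21.4, 26.5 and 22.3 with antigen. Fosb, Junb and Jund, subunits of AP-1, and Atf3 and Klf10 rose by 3.49, 1.96, 2.04, 2.75 and 2.49 on the log2 scale. Egr1 differed from the others in its order of levels: it was at 0.371, 0.171 and 0.257 FPKM untreated, 2.85, 3.51 and 3.56 with IgE alone and 2.95, 2.81 and 2.65 with antigen, so that the IgE and antigen libraries overlapped. Fos stayed under the filter, at 0.1803, 0.193 and 0.1999 FPKM untreated and 1.004, 0.829 and 0.758 with antigen. Id1, Id3 and Klf2 fell (log2 differences of -1.14, -1.22 and -1.19). Id1 and Id3 are dimer partners that hold basic helix-loop-helix factors off DNA, and Id2, of the same family, rose by 1.31.

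All 32 listed genes of the NF-kB system were tested, and 26 rose and 6 fell (median 1.14). 3 of them passed the filter through the antigen libraries alone and had to be higher there; of the 29 at 1 FPKM in all 6 libraries, 23 rose and 6 fell. The subunits rose unequally. Relb went from 4.02, 4.07 and 3.95 to 45.2, 48.8 and 47.5 FPKM, 11.8-fold, and Nfkb2, Nfkb1, Rel and Rela rose by 3.11, 2.05, 1.30 and 0.45 on the log2 scale. Nfkbia, the inhibitor that NF-kB itself switches on, rose 6.27-fold, from 14.8, 15.8 and 15.6 to 98.8, 94.7 and 95.97 FPKM, and Tnfaip3, which encodes the ubiquitin-editing inhibitor A20, rose by 2.26. Bcl3 and Traf1 rose by 2.50 and 2.47. The genes that fell were Ikbkb, Ikbke, Tnip2, Birc2, Birc3 and Cyld, each by less than 2-fold (-0.25, -0.64, -0.30, -0.45, -0.30 and -0.36). Inhibitors and subunits were thus both among the rises of 2-fold or more, and the kinases Ikbkb and Ikbke among the falls.

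Feedback inhibitors of MAP kinase signalling rose at 16 of 20 tested genes (24 listed) and fell at 2, with a median of 0.93. 3 of the 20 passed the filter through the antigen libraries alone and 1 through the untreated ones, and of the 15 at 1 FPKM in all 6 libraries, 12 rose and 1 fell. Errfi1, an inhibitor of the EGF receptor family, rose 7.19-fold, from 5.45, 5.32 and 5.004 to 38.2, 36.9 and 38.2 FPKM. Spry2, Dusp4 and Dusp2 rose by 2.24, 2.14 and 1.61. Dusp6, the ERK phosphatase of the cytoplasm, stood at 9.46 ± 0.851 FPKM untreated and 10.4 ± 0.529 with antigen and was not called, while Dusp7 and Spred3 fell (-0.64 and -0.52). Among regulators of mRNA decay, 11 of 20 tested rose (55%) and 2 fell (10%) on the deposited scale, beside 41% and 36.8% of all tested genes. Under quantile normalization 5 fell. Zc3h12c, an RNase related to regnase, rose 4.64-fold to 29.9 ± 0.841 FPKM, and Rc3h1 (roquin) rose 2.92-fold, from 11.1, 10.6 and 10.9 to 30.4, 32.3 and 32.9 FPKM. Zfp36, which encodes tristetraprolin, a protein that marks cytokine mRNA for decay, rose by 0.39, and Btg1, a cofactor of deadenylation, was at 56.4, 58.7 and 54.9 FPKM untreated, 40.6, 37.6 and 43.1 with IgE and 132, 143 and 130.5 with antigen.

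The chains of the IgE receptor did not move together. Ms4a2, the beta chain, was at 1174, 1188 and 1209 FPKM untreated, 1159, 1080.03 and 1002 with IgE and 633, 612 and 632 with antigen, 1.902 times lower (log2 difference -0.93, SE 0.044, adjusted p = 1.22e-07). Fcer1a, the chain that binds IgE, was at 5328, 5808 and 5821 FPKM untreated and 4660.2, 4877 and 4909 with antigen (log2 difference -0.23, adjusted p = 0.0349), and this call was lost in 9 of the alternative settings. Fcer1g, the signalling chain, was at 707, 708 and 699.8 and 791, 783 and 798 FPKM, a rise of 0.17 that turned to -0.21 (adjusted p = 0.00623) under quantile normalization. Of 38 tested genes of receptor-proximal signalling (40 listed), 16 rose (42.1%) and 18 fell (47.4%), beside 41% and 36.8% of all tested genes. The median was -0.09, and 2 of the 38 passed the filter through the antigen libraries alone. Quantile normalization gave 11 rises, 25 falls and a median of -0.28. Lyn and Fyn, the Src family kinases next to the receptor, rose by 0.93 and 1.30, and the adaptor Lat by 1.32, while Syk fell by 0.19. The regulatory PI3 kinase subunit Pik3r5 went from 0.244, 0.193 and 0.237 to 2.799, 3.06 and 2.81. The catalytic subunits Pik3cd and Pik3cg fell (log2 differences of -1.48 and -1.14). Pag1, an adaptor that brings the inhibitory kinase Csk to the membrane, fell 4.01-fold, from 15.2, 15.2 and 14.1 to 3.27, 3.93 and 3.89 FPKM, and Csk fell by 0.56. The adaptor Gab2 and the exchange factor Rasgrp1 fell (log2 differences of -0.68 and -1.05). On the deposited scale rises and falls were thus mixed among kinases, adaptors and lipid kinase subunits.

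Genes of calcium entry and its decoding rose at 16 and fell at 4 of 27 tested (median 0.43), with 8 falls under quantile normalization. The shares on the deposited scale were 59.3% and 14.8%, beside 41% and 36.8% of all tested genes. Nfatc1, a calcium-dependent transcription factor, was at 15.4, 12.9 and 14.3 FPKM untreated and 57.2, 61.6 and 57.6 with antigen, 4.13-fold higher. Kcnn4, the potassium channel KCa3.1 that opens with calcium and sustains its entry, rose 3.73-fold, from 64.02, 62.7 and 66.2 to 245, 239 and 236 FPKM. The store-operated channel Orai1 rose by 1.21, and of its 2 sensors Stim2 rose by 1.45 and Stim1 fell (-0.54). The plasma membrane pump Atp2b1 and the store pump Atp2a2, which both remove calcium from the cytosol, rose by 1.72 and 1.46. Rcan1, a calcineurin inhibitor, was at 10.7, 10.5 and 11.1 FPKM untreated and 10.9, 10.4 and 10.9 with antigen, overlapping values that were not called (adjusted p = 0.879).

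Granule genes rose at 22 of 26 tested (31 listed) and fell at 3, with a median of 0.60, against 17 rises, 4 falls and a median of 0.38 under quantile normalization. Apart from Hdc and Tpsab1, the rises were moderate. Srgn, the proteoglycan core on which the granule content is packed, was at 4991, 5299 and 5443 FPKM untreated and 8729, 9059.7 and 9762 with antigen, 1.75-fold higher at one of the highest levels in the table. Mcpt4, a chymase, was at 6.23, 5.37 and 7.34 FPKM untreated, 11.7, 13.1 and 9.898 with IgE and 14.8, 17.1 and 15.8 with antigen, so that it lay higher in both other groups than in the untreated one. Gzmc rose 4.79-fold, and Gzmb and Ctsg by 1.19 and 1.497. Slc18a2, the transporter that loads histamine into granules, rose by 0.59, and the lysosomal enzyme Ctsd went from 2024, 1999 and 2160.1 to 2659, 2562 and 2668 FPKM, a rise that was lost under quantile normalization. Prss34, a tryptase that is also a basophil gene, fell 2.198-fold, from 120.3, 109 and 132 to 55.3, 54.1 and 54.7 FPKM, and Ndst2, which sulfates heparin, fell by 0.95. The tested autosomal granule genes made up 3.88% ± 0.0733 of the summed autosomal FPKM in the untreated libraries and 4.95% ± 0.219 with antigen.

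The machinery that fuses granules with the membrane was mixed, with 9 rises and 12 falls in 26 tested genes, and 16 falls under quantile normalization. The shares on the deposited scale were 34.6% and 46.2%, beside 41% and 36.8% of all tested genes. Stx11, a syntaxin, rose 4.28-fold, from 13.9, 14.99 and 15.3 to 60.9, 61.96 and 66.2 FPKM, and Sytl2, an effector of Rab27, rose 1.91-fold. Unc13d, which primes granules, and the small GTPases Rab37 and Rab3d fell (log2 differences of -0.83, -0.75 and -0.52). Among 13 tested genes of eicosanoid synthesis, 8 rose and 3 fell (median 0.13), while quantile normalization gave 4 rises, 6 falls and a median of -0.04. Ptgs2, the inducible cyclooxygenase, was at 0.0734, 0.102 and 0.0417 FPKM untreated and 3.41, 3.45 and 3.81 with antigen. The constitutive enzyme Ptgs1 rose 1.92-fold, from 38.9, 44.5 and 41.1 to 77.6, 80.6 and 81.4 FPKM, and remained far above Ptgs2 in level. Alox5 and Ltc4s, of the leukotriene branch, fell (-0.33 and -0.33). The 2 cyclooxygenase genes thus rose, while these 2 leukotriene enzymes fell by less.

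Receptor genes were called in both directions in shares near those of all tested genes (41% and 36.8%). Of 50 tested genes of cytokine receptors, JAK-STAT and SOCS proteins, 23 rose (46.0%) and 20 fell (40%). The median of 0.06 turned to -0.07 under quantile normalization. Kit, the receptor for stem cell factor, was at 472, 419.9 and 450.4 FPKM untreated and 442, 471 and 457 with antigen and was not called (adjusted p = 0.602), although quantile normalization placed it lower (-0.40, adjusted p = 0.00107). Il9r rose 4.996-fold, from 7.88, 8.51 and 7.91 to 40.5, 40.1 and 40.7 FPKM, and Jak2, the kinase that serves the IL-3 receptor, rose 4.604-fold, from 59.1, 58.8 and 61.01 to 278, 271 and 274 FPKM. Cish, a feedback inhibitor of STAT5, rose by 1.52, whereas Socs1 and Socs3 and the STAT5 target kinases Pim1, Pim2 and Pim3 fell (-2.98, -0.74, -0.47, -1.51 and -0.89). Il4ra and Il18r1 fell (log2 differences of -0.99 and -1.23), and Il1rl1, the receptor for IL-33, was not called (0.06).

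Of 49 tested chemokine, complement, adhesion and costimulatory receptors, 24 rose (49.0%) and 22 fell (44.9%). C5ar1, the receptor of the complement fragment C5a, was at 4.502, 4.95 and 4.76 FPKM untreated, 2.79, 2.86 and 3.38 with IgE and 69.6, 74.3 and 75.4 with antigen, so that the IgE libraries lay below and the antigen libraries far above the untreated ones. Its relative C5ar2 showed the same order, with 9.49, 8.92 and 8.96, 5.19, 5.24 and 6.07 and 28.5, 29.3 and 29.8 FPKM, and C3ar1 rose by 1.32. Havcr2, the checkpoint receptor TIM-3, rose 7.97-fold, from 60.6, 64.1 and 62.5 to 503, 488 and 501 FPKM, and Cd274, which encodes PD-L1, rose by 1.01. The integrins Itga5 and Itgav and the hyaluronan receptor Cd44 rose by 1.99, 1.33 and 2.12. The chemokine receptors Ccr2 and Ccr3 fell (log2 differences of -2.20 and -1.94), and Cd69, a lymphocyte activation marker, was lower with antigen (48.99, 54.5 and 52.2 against 33.5, 32.8 and 33.2 FPKM). Mrgprb2, the receptor through which peptides activate mast cells without IgE, fell by 0.97. Among inhibitory and paired immunoreceptors 8 of 17 tested rose (47.1%) and 6 fell (35.3%), near the 41% and 36.8% of all tested genes. Their median of 0.07 turned to -0.13 under quantile normalization. Lilrb4 rose 2.07-fold, from 550.5, 572 and 573 to 1235, 1086 and 1182 FPKM, Cd33 rose 2.35-fold, and Fcgr2b, the inhibitory IgG receptor, fell by 0.53.

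Of 29 tested transcription factors of the mast cell lineage, 15 rose (51.7%) and 13 fell (44.8%), beside 41% and 36.8% of all tested genes. Gata2 was at 218, 201 and 210.3 FPKM untreated and 193, 199 and 195 with antigen (log2 difference -0.10, adjusted p = 0.0469), a call lost in several alternatives. Mitf fell slightly, from 71.3, 72.6 and 75.1 to 58.3, 60.4 and 63.7 FPKM. Bcl6, a repressor better known from germinal centre B cells, rose 16.1-fold, from 2.12, 1.69 and 2.03 to 30.6, 30.5 and 32.97 FPKM. Cebpb rose 5.25-fold and Cebpa fell (-0.87), 2 members of a family in which Cebpa is tied to granulocyte fate. Erg, an ETS factor of blood stem cells, fell 4.45-fold, from 28.8, 26.5 and 29.2 to 6.11, 6.25 and 6.63 FPKM, and Lmo4 and Nfe2 fell (log2 differences of -1.41 and -1.04). Kit, Gata2 and Mitf, which are among the 12 tested defining genes, thus differed little on the deposited scale (0.03, -0.10 and -0.26). Bcl6 and Erg stood far from their untreated levels. Of the 12 defining genes 5 rose and 4 fell, and Hdc (4.99), Mcpt4 (1.21) and Ms4a2 (-0.93) differed more.

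Genes of the integrated stress response and of amino acid supply rose nearly throughout. In this pathway the factor ATF4 is translated when the initiation factor eIF2 is phosphorylated or amino acids are short, and it switches on transporters, biosynthetic enzymes and tRNA synthetases. Of 31 listed, 30 were tested, 28 rose (24 of them 2-fold or more) and 1 fell, with a median of 1.47 (0.28 for IgE alone against untreated). Atf4 itself rose 2.77-fold, from 206, 247 and 203 to 629.98, 587 and 605 FPKM. The amino acid transporters Slc7a5 and Slc7a11 were at 24.7, 26.2 and 23.6 and 0.951, 1.06 and 0.9003 FPKM untreated and at 243, 248 and 233 and 16.9999, 17.2 and 17.4 with antigen. Slc7a5 carries large neutral amino acids and Slc7a11 exchanges cystine for glutamate. Chac1, which degrades glutathione, rose 16.9-fold, from 1.26 ± 0.211 to 21.3 ± 0.418 FPKM. The enzymes of asparagine and serine synthesis Asns, Phgdh and Psat1 rose by 2.26, 2.40 and 1.47 on the log2 scale. Each tRNA synthetase gene on the list rose: Gars, Cars, Aars, Nars, Wars and Sars by 1.75, 1.58, 1.30, 1.27, 1.21 and 1.15. Ddit3, which encodes the factor CHOP, rose by 0.69, less than most members. Gdf15 fell (-0.84) although it is a common readout of the pathway, and Ddit4 was not called (-0.10). Under quantile normalization 28 members were higher, with a median of 1.11.

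**Figure D4:**
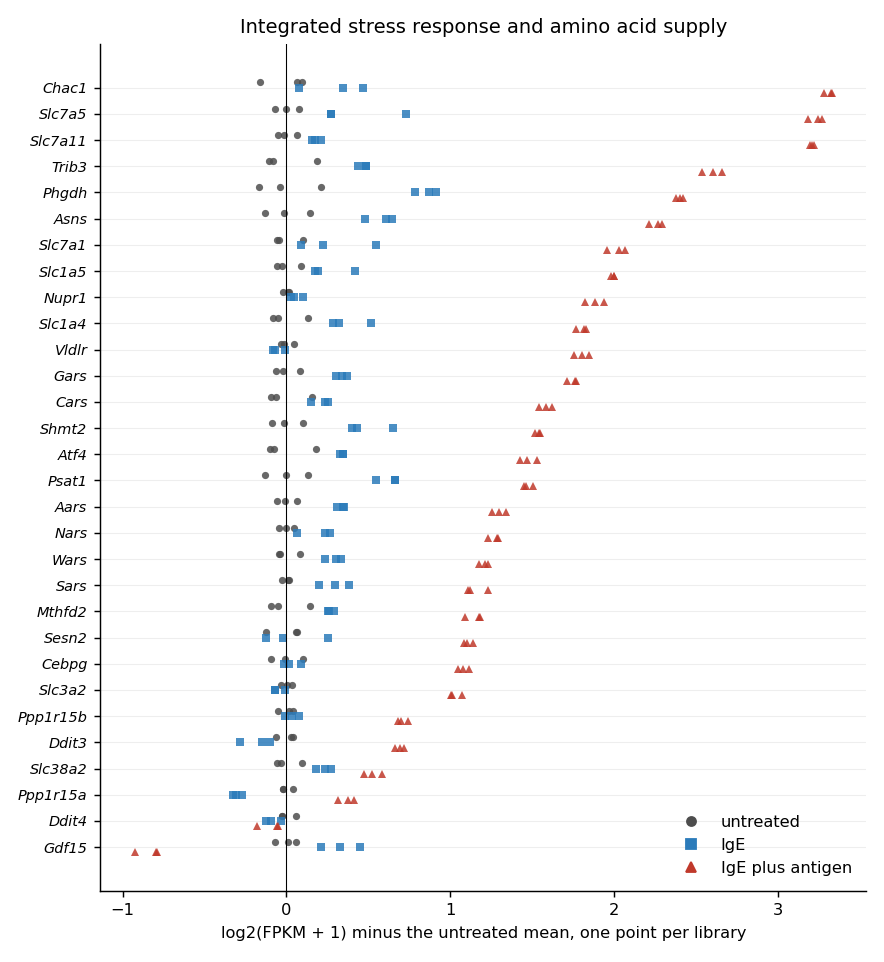
Log2(FPKM + 1) of the 30 tested genes of the integrated stress response list, minus the untreated mean of the gene (x axis), with 1 point per library; circles are untreated, squares IgE alone and triangles IgE plus antigen. In 28 genes the antigen points lie to the right of the untreated ones, and in Ddit4 and Gdf15 they lie to the left, in Ddit4 by little.

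Other stress programmes moved less. ER chaperones and the unfolded protein response had 19 rises and 1 fall in 26 tested genes (median 0.35), with 7 falls under quantile normalization. Herpud1, of the ER degradation complex, rose 3.36-fold, from 91.8, 96.3 and 94.5 to 317, 316 and 316 FPKM, while Dnajb9, Pdia4 and Hsp90b1 were not called (-0.08, -0.07 and 0.07). Eif2ak3, the ER kinase PERK that phosphorylates eIF2, fell by 0.33. Heat shock genes rose at 15 and fell at 0 of 17 tested (median 0.38), with 9 rises under quantile normalization. Bag3 and Hspa4l rose 4.57-fold and 3.39-fold, and the inducible Hspa1a was at 0.0994, 0.135 and 0.161 FPKM with antigen. Redox genes, many of them targets of the factor Nrf2, rose at 20 and fell at 1 of 26 tested (median 0.53), with 7 falls under quantile normalization. Hmox1, haem oxygenase, rose by 2.88, Gclc and Txnrd1 by 1.73 and 1.69, and the metallothioneins Mt1 and Mt2 by 1.84 and 2.62. Tfrc, the transferrin receptor that takes up iron, rose 9.29-fold, from 4.67, 6.35 and 5.17 to 48.3, 50.5 and 51.5 FPKM, with 10.5, 9.98 and 9.304 under IgE alone. Nfe2l2, which encodes Nrf2, was not called (-0.01).

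Cell cycle genes were lower with antigen than in untreated cells, by small amounts, and their medians were highest in the IgE libraries. Of 40 tested genes of G1/S and DNA replication, 7 rose (17.5%) and 22 fell (55%), beside 41% and 36.8% of all tested genes. Their median was -0.17, and that of the same genes was 0.64 for IgE against untreated and -0.82 for antigen against IgE. For 36 genes of G2/M and mitosis there were 4 rises (11.1%) and 21 falls (58.3%), with a median of -0.13, and 0.38 and -0.51 in the other pairs. Of the falls, 12 in the first list and 3 in the second passed a test against a 1.2-fold difference. Ung, which removes uracil from DNA, was at 2.27, 2.58 and 2.397 FPKM untreated, 4.56, 4.68 and 4.93 with IgE and 0.662, 0.484 and 0.513 with antigen. The chromatin assembly subunit Chaf1b fell 2.203-fold, from 50.2, 50.5 and 50.9 to 23.7, 22.6 and 22.5 FPKM. Cdc6, Dtl and the mismatch repair gene Msh6 fell (log2 differences of -0.63, -0.65 and -0.99). Pcna, the sliding clamp of the replication fork, went the other way, at 156, 166 and 161 FPKM untreated, 246, 256 and 229 with IgE and 368, 344 and 337 with antigen, and Cenpa, the centromeric histone, rose 2.73-fold. Ccnb1, Top2a and Cdc20 were not called (0.00, -0.01 and -0.05). Among genes that control the cycle, Cdkn1a (p21) and Cdkn2b (p15) rose by 1.66 and 1.68, Cdkn1b (p27) fell by 0.72, and Ccnd2 rose by 1.24 beside small falls of Ccnd1 and Ccnd3 (-0.27 and -0.22). Sesn3, a sestrin under FoxO control, fell 4.19-fold, from 12.4, 11.03 and 11.5 to 2.45, 3.14 and 2.75 FPKM. The IgE levels at these genes cannot be used as a second test, since the comparisons share the untreated libraries.

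**Figure D5:**
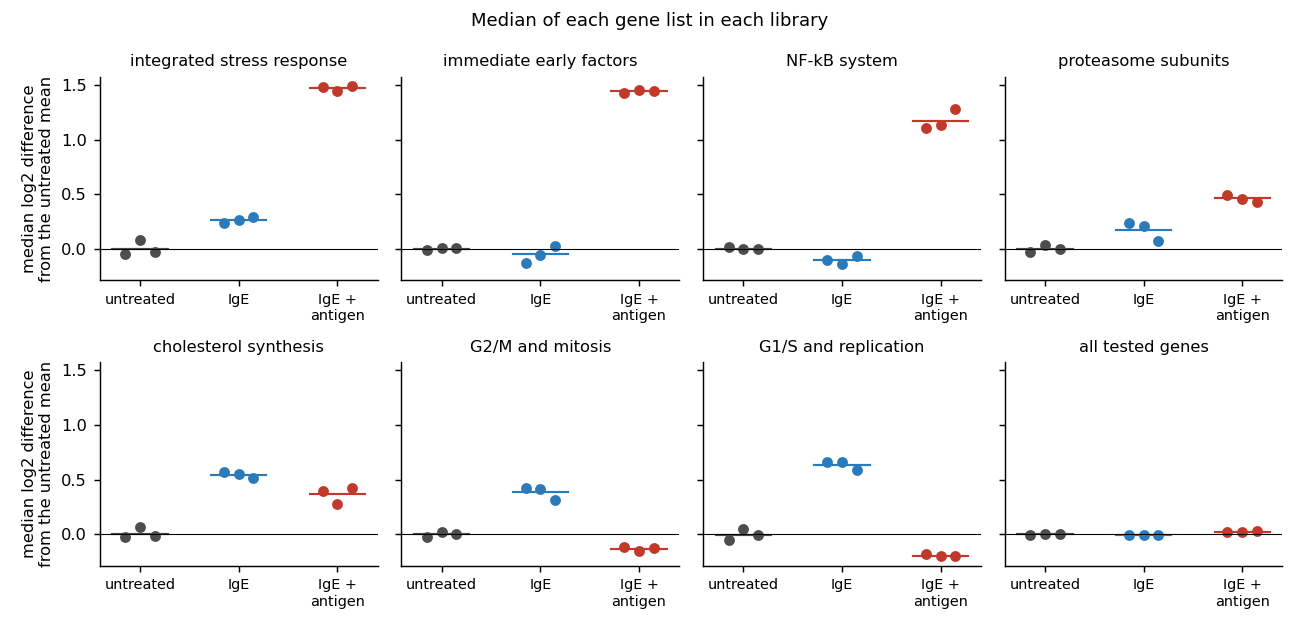
Median over the tested members of 7 gene lists, and over all tested genes, of log2(FPKM + 1) minus the untreated mean of each gene (y axis), with 1 point per library and a bar at the group mean. The stress response, immediate early and NF-kB medians are above 1 in the 3 antigen libraries and below 0.5 in the other 6, while the G1/S, G2/M and cholesterol medians are highest in the 3 IgE libraries.

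Cholesterol synthesis genes rose at 16 and fell at 5 of 22 tested (median 0.33), against 12 rises, 6 falls and a median of 0.18 under quantile normalization. The median for IgE alone was 0.50. Cyp51 was at 25.02, 28.97 and 26.5 FPKM untreated, 45.2, 44.7 and 39.7 with IgE and 74.96, 72.8 and 74.1 with antigen, while Tm7sf2 was highest with IgE alone (4.58, 4.91 and 4.38, 10.6, 9.87 and 9.91 and 8.53, 8.73 and 8.96 FPKM). Insig1, which holds the factor SREBP in the ER, fell by 0.30 on the log2 scale. Scd1, the desaturase that makes oleic acid, rose 5.32-fold, from 6.91, 6.73 and 6.63 to 36.003, 35.5 and 36.3 FPKM with 16.2, 15.8 and 18.2 under IgE. Acsl4, an X chromosome gene with 2 antigen values, loads arachidonic acid onto coenzyme A and went from 30.2, 32.6 and 29.3 to 113 and 121 FPKM. The cholesterol exporters Abca1 and Abcg1 and the ubiquitin ligase Mylip, which are all switched on by sterols, fell (log2 differences of -0.36, -0.52 and -1.24).

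Highly expressed housekeeping groups rose by small amounts that shrank or were lost under quantile normalization. Median centring shifts each library as a whole and took the median of all tested genes from 0.02 to -0.03. That step is smaller than the list medians below. The 671 tested genes at 100 FPKM or more in untreated cells had a median log2 difference of 0.27, with 441 rises and 118 falls. Cytosolic ribosomal protein genes rose at 45 of 48 and fell at 0 (median 0.31), but under quantile normalization 3 rose and 9 fell, with a median of -0.04. Rps2, at 618, 714 and 687 FPKM untreated and 1134, 1134 and 1101 with antigen, rose most on the log2 scale. Oxidative phosphorylation genes rose at 32 of 38 (median 0.33), against 8 rises and 13 falls under quantile normalization. Cycs, which encodes cytochrome c, rose 1.97-fold. Histone genes of the clusters rose at 17 of 27 and fell at 1 (median 0.37), against 1 rise under quantile normalization and 10 rises without antigen replicate 1 or without antigen replicate 2, and 24 without antigen replicate 3. That library stood apart, with a median over these genes of 0.10 above the untreated mean on the log2 scale, beside 0.49 and 0.502 in the other antigen libraries. Their RNA mostly lacks a poly(A) tail. Ribosomal and histone transcripts are short, with medians of 1200 and 743 bases, and the 503 tested genes with transcripts under 1000 bases had a median difference of 0.17, whose part in the result was not tested. Lysosome genes rose at 19 (59.4%) and fell at 8 (25%) of 32, beside 41% and 36.8% of all tested genes. Their median was 0.29, and under quantile normalization there were 11 rises, 16 falls and a median of -0.05. Glycolysis genes rose at 15 (57.7%) and fell at 10 (38.5%) of 26, the falls near the share of all tested genes. Their median of 0.30 turned to -0.04 under quantile normalization. Pfkfb3, which makes the activator of glycolysis fructose 2,6-bisphosphate, rose 2.62-fold, while the glucose transporter Slc2a1 and the muscle-type phosphofructokinase Pfkm fell (-0.72 and -0.97).

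Proteasome subunits rose nearly throughout, apart from 2 of the immunoproteasome. All 38 were tested, 36 rose and 2 fell (median 0.48), and under quantile normalization 25 rose and 5 fell. Against a 1.2-fold difference 29 rises and 1 fall passed. Psmd11 and Psmd8, of the regulatory lid, rose 1.97-fold and 1.91-fold, from 29.996, 31.1 and 30.6 to 57.6, 61.2 and 62.1 and from 88.96, 90.7 and 91.1 to 179, 170.5 and 169 FPKM. The 2 genes that fell, Psmb9 and Psmb8, encode catalytic subunits of the immunoproteasome. Psmb9 fell 2.29-fold, from 52.9, 54.5 and 57.9 to 26.01, 25.6 and 20.5 FPKM, and Psmb8 fell by 0.20 on the log2 scale. The constitutive counterpart of Psmb9, Psmb6, rose by 0.64. Tap1 and Tap2, which carry peptides to MHC class I molecules, also fell, Tap1 from 27.6, 29.6 and 28.3 to 14.6, 14.3 and 13.1 FPKM and Tap2 from 130.03, 129 and 127 to 85.3, 89.7 and 86.4, whereas H2-K1 and H2-D1 rose by 0.49 and 0.34. Psmb9 and Tap1 lie next to each other in the MHC region and both answer to interferon.

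Interferon-stimulated genes had a median of -0.21, with 6 rises and 11 falls in 22 tested of 36 listed. The shares were 27.3% and 50%, beside 41% and 36.8% of all tested genes. Of the tested, 4 passed the filter through the untreated libraries alone and had to be lower with antigen, and 1 through the antigen libraries. With no filter 17 fell, and of the 16 at 1 FPKM in all 6 libraries, 7 fell and 5 rose, with a median of -0.11. Usp18, which removes the modifier ISG15, fell 3.58-fold, from 12.97, 12.9 and 14.9 to 3.95, 3.78 and 3.65 FPKM, Parp14 fell 3.37-fold, and Irf1 fell by 1.42. Gbp5 and Gbp2 fell (log2 differences of -0.87 and -0.50), and Gbp3 rose by 1.43. Irf5 went against most of the list, at 7.07, 7.44 and 7.62 FPKM untreated and 52.6, 52.7 and 51.9 with antigen, 7.11-fold higher. Stat2, which carries the interferon signal, fell by 0.49 on the log2 scale.

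Genes of the BCL2 family and cell death rose at 13 and fell at 12 of 28 tested (46.4% and 42.9%, near the 41% and 36.8% of all tested genes), and both survival and death genes were among the rises. Bcl2a1d, a survival factor from a cluster of near-identical copies and so uncertain in its counting, was at 0.178, 0.0953 and 0.0854 FPKM untreated and 5.33, 4.51 and 5.72 with antigen. Bcl2l11, the death-promoting protein BIM, rose 6.02-fold, from 5.28, 4.65 and 4.82 to 28.4, 29.9 and 30.5 FPKM, and Pmaip1 (NOXA) rose by 2.22. Cflar and Mcl1, which oppose cell death, rose by 1.60 and 0.87, and Bcl2 and Bmf fell (log2 differences of -0.51 and -1.72). Casp4, the caspase that senses lipopolysaccharide in the cytosol, rose 5.09-fold, from 7.92, 8.68 and 9.31 to 43.05, 43.9 and 44.97 FPKM.

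Proteases, serpins and matrix genes rose at 12 and fell at 4 of 16 tested (median 0.86). Of the 16, 4 passed the filter through the antigen libraries alone and had to be higher there, which lifts the count and the median. Plaur, the urokinase receptor, rose 6.64-fold, from 4.15, 4.49 and 4.85 to 29.9, 29.01 and 30.6 FPKM, and the metalloprotease Adam8 rose 4.79-fold, from 28.1, 26.4 and 30.7 to 140.3, 133 and 135 FPKM. Plau, the ligand of Plaur, fell by 0.25, so the receptor rose while the protease was lower.

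Among regulators of G protein signalling, Rgs16 was at 0.535, 0.486 and 0.521 FPKM untreated and 18.03, 16.6 and 16.1 with antigen, whereas Rgs18 and Rgs14 fell 2.18-fold and 2.35-fold, Rgs18 from 260.4, 264 and 276 to 121, 119 and 127 FPKM. The list had 7 rises and 6 falls in 14 tested (50% and 42.9%), near the 41% and 36.8% of all tested genes. Of the DNA methylation genes, Dnmt3a, a de novo methyltransferase, rose 7.05-fold, from 8.24, 7.93 and 7.82 to 55.1, 56.5 and 57.4 FPKM, and Tet3, which oxidises methylcytosine, rose 4.86-fold, from 4.76, 4.27 and 4.15 to 19.7, 22.2 and 22.1. Dnmt1 and Dnmt3b fell (log2 differences of -0.19 and -0.37), and Tet2 was not called (0.09). The methylation list had 5 rises and 5 falls in 16 tested (31.25% each). Circadian clock genes showed 7 rises and 6 falls in 15 tested (46.7% and 40%), also near the shares of all tested genes. Dbp, a clock output factor, was at 6.45, 5.54 and 6.26 FPKM untreated and 1.005, 0.848 and 0.663 with antigen. Per3 and Rora fell (log2 differences of -0.86 and -0.87). Named long noncoding RNAs rose at 10 and fell at 4 of 18 tested (55.6% and 22.2%). Neat1, the scaffold of paraspeckles, was at 287, 265 and 261 FPKM untreated, 211, 191 and 262 with IgE and 449, 468 and 466 with antigen, and Trp53cor1 fell 4.37-fold. Over all annotated classes, 81 of 295 tested long noncoding RNA genes rose and 114 fell (median -0.08). A family defined by its names alone, the numbered zinc finger genes, rose at 59 and fell at 131 of 272 tested (21.7% and 48.2%, median -0.14). Of the 272, 10 passed the filter through the untreated libraries alone and had to be lower with antigen. Another 3 passed through the antigen libraries alone and had to be higher.

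Some genes were near absent in 1 group. A mean under 0.1 FPKM untreated with every antigen library at 1 FPKM or more was found for 18 genes. Nr4a3 and Ptgs2 were among these, as were Olr1 (0.00857, 0 and 0 FPKM untreated, 11.5, 12.9 and 12.5 with antigen), Clcf1, a cytokine of the IL-6 family (0, 0 and 0 and 2.61, 3.31 and 2.57), Crabp2, a carrier of retinoic acid (0, 0 and 0.0736 and 3.91, 3.72 and 4.24), and Ttc39c (0.0523, 0.0558 and 0.124 and 4.84, 4.31 and 3.87). The reverse was found for 3 genes. Sox7, an endothelial and stem cell transcription factor, went from 1.17, 1.42 and 1.399 to 0.0966, 0.101 and 0.0946 FPKM, Fam181b from 1.81, 1.86 and 1.75 to 0, 0.0264 and 0.0579, and Lpar5, a receptor for lysophosphatidic acid, from 1.05, 1.09 and 1.36 to 0.0301, 0.108 and 0.125. All 3 of the latter were under 2 FPKM without antigen, close to the filter.

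For 69 called genes, the level with IgE alone differed from untreated by 0.5 or more on the log2 scale in the direction opposite to that with antigen. The 69 include 2 genes, Cdk8 and the elongation factor Eef1a1, that were listed at 0 in all 3 IgE libraries, which leaves 67. C5ar1, C5ar2 and Il13 were below the untreated level with IgE and above it with antigen. Il1b was at 23.1, 22.7 and 22.3 FPKM untreated, 15.2, 14.3 and 11.6 with IgE and 64.5, 65.5 and 62.4 with antigen. Nov, a matricellular protein, Arrdc4, an arrestin-like protein, and Rab11fip4 had the same order: Nov was at 10.6, 11.7 and 10.8, 6.704, 6.95 and 7.66 and 30.9, 29.9 and 30.6 FPKM, Arrdc4 at 3.89, 3.74 and 3.72, 1.57, 2.203 and 2.05 and 10.3, 10.3 and 10.4, and Rab11fip4 at 2.85, 2.51 and 2.73, 1.49, 1.77 and 1.41 and 15.5, 15.3 and 16.7. Cdca7, a cell cycle gene, had the reverse order, with 7.03, 7.51 and 6.91, 11.6, 11.9 and 10.9 and 2.14, 2.05 and 2.26 FPKM, as did Ung. Cdk8 was at 14.8, 15.3 and 14.8 FPKM untreated and 38.2, 35.6 and 37.8 with antigen, and Eef1a1, which every cell uses, at 5435, 5460.2 and 5789.9 and 7091, 6811 and 7186, so these zeros are listed as such and no fold against them is given.

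At the top of the expression range, Actb (beta-actin) rose 1.73-fold, from 3318, 3312 and 3428 to 5702, 5751 and 5916 FPKM, and Prnp, the prion protein, fell 1.89-fold, from 1126, 1093 and 1183 to 609, 599.7 and 595 FPKM. Itm2b, a membrane protein, was at 1525, 1560.01 and 1586 and 1451, 1417 and 1389 FPKM, a call near the threshold (adjusted p = 0.0421). Rpph1, the RNA of RNase P, had the highest value of any gene and was spread widely, at 34921, 39506 and 49367 FPKM untreated and 29360.3, 29453 and 20009 with antigen (adjusted p = 0.0309). This call was lost in 8 alternative settings, among them 4 of the 6 fits that left out 1 library. Quantile normalization, also among the 8, gives the highest gene of each library the same value. Its difference of 0 for Rpph1 was therefore fixed in advance. Actb is often used to normalise other assays, and in these libraries it was among the genes that rose.

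Genes that rose or fell 2-fold or more were at places neighbours on the chromosome. Runs of 3 or more tested neighbours that all rose 2-fold or more, chosen here after their values were seen, included Ccl2, Ccl7 and Ccl1 on chromosome 11, Ctsg, Gzmc and Gzmb on chromosome 14, and Il1a, Il1b and Il1bos on chromosome 2. The longest run held 6 genes on chromosome 10: Txnrd1, Eid3, Chst11, Slc41a2, D10Wsu102e and Aldh1l2. Further runs are not named, and whether runs were more frequent than the share of rises would give was not tested. The lectin receptors Clec4n, Clec4d and Clec4e on chromosome 6 rose from 2.96 ± 0.453, 1.61 ± 0.305 and 1.28 ± 0.142 to 7.95 ± 0.205, 5.46 ± 0.471 and 5.38 ± 0.0918 FPKM. Nab2, a corepressor of EGR factors that lies beside Stat6 and Shmt2 on chromosome 10, rose 14.7-fold, from 3.95, 3.86 and 3.92 to 54.8, 57.1 and 61.03 FPKM. Among the falls, the receptor genes Ccr1l1, Ccr3 and Ccr2 on chromosome 9 fell 3.56-fold, 5.77-fold and 4.8004-fold, and the guanylate-binding proteins Gbp4, Gbp6 and Gbp11 on chromosome 5 fell 2.68-fold, 2.35-fold and 2.91-fold. Several of these clusters hold paralogs, and Il1bos is antisense to Il1b, so that reads may be split or shared among them where strand was not used.

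Markers of other cell types that such cultures could hold were mostly at or near 0, with exceptions. T cell markers were under 1 FPKM in all 6 libraries, with Cd3e and Cd3g at 0, and of the B cell markers only Cd79b was tested (2.27, 2.16 and 2.27 FPKM untreated, 0.997, 0.637 and 0.777 with antigen), with Ms4a1 and Pax5 at 0. Macrophage markers summed to between 105.8 and 113.0 FPKM untreated and between 89.1 and 91.6 with antigen: Lyz2 fell from 68.9, 70.8 and 76.6 to 37.6, 37.6 and 37.2 FPKM, and Cd68 rose from 8.92, 8.304 and 8.63 to 30.4, 29.6 and 30.5. Of the natural killer and stromal or endothelial markers, Eomes, a T-box factor, fell from 5.18, 5.58 and 5.0996 to 3.42, 3.37 and 3.13 FPKM and Tek, an angiopoietin receptor, from 17.4, 17.04 and 17.9 to 10.8, 11.1 and 11.7, and the others were not tested, with Prf1 and Cdh5 at 0. Neutrophil markers summed to 3.16 to 3.44 FPKM untreated and 3.21 to 4.96 with antigen. Of 6 eosinophil markers in the table, Ccr3 alone was tested, and Ear1 was at 0. Of 8 dendritic cell markers, Zbtb46 alone was tested, at 0.235, 0.201 and 0.125 FPKM untreated and 2.26, 2.13 and 1.92 with antigen. Erythroid markers summed to 17.9 to 21.1 FPKM untreated and 30.6 to 31.9 with antigen, mostly from the globin gene Hbb-bt (13.99, 16.6 and 14.3 and 26.4, 24.4 and 25.9). Megakaryocyte markers, led by Itga2b and Gp5, summed to 524.6 to 534.7 and 431.8 to 444.4 FPKM. Basophil markers summed to 5847 to 6378 and 5253 to 5522 FPKM, nearly all of it Fcer1a, which mast cells share. Mcpt8, the basophil protease, was at 11.7, 11.9 and 13.5 FPKM untreated and 18.7, 18.1 and 21.9 with antigen, while Prss34 fell. The part of such cells in the results was not tested.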

How the data were processed

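RNA sequencing values of mast cells were used as FPKM per gene symbol in 9 libraries, deposited by the authors in 1 table. Per the submitters' processing notes, the tools were TopHat2 2.0.12 and Bowtie 0.12.7 and the genome mm9. Neither the FPKM program nor its annotation or strand setting is named, being not given in the sources used here, and no counts were at hand. Without strand, a gene and its antisense partner cannot be told apart. Samples were grouped by their labels, and columns were matched to samples by name. Depth was estimated from the spacing of low FPKM values and transcript length, and the error drawn from it covers counting only.

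The test was limma (version 3.58.1, with R 4.3.3) on log2 values of FPKM + 1, for genes at 1 FPKM or more in 3 or more of the 6 libraries, with an intensity trend and no covariate. It was two-sided and adjusted by the Benjamini-Hochberg method over all 10808 genes, and genes with an adjusted p under 0.05 were called. This scale understates the change of low genes. The script was checked on simulated data. Ftl1, listed at 0 in all antigen libraries, was left out. RefSeq (GRCm38.p6) gave chromosomes and promoter windows, with 155 symbols unmatched.

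The comparison, its gene lists and its rules were chosen with earlier results of these data known. Named genes are the 12 largest rises and falls without overlap of the groups (short RNAs left out), per list the 3 called members with the largest difference (or the 2 highest in level), 24 fixed mast cell and response genes, the 5 highest-level calls in each direction, up to 6 genes near absent in 1 group, and the 10 largest with an opposite IgE difference. A few genes that these rules name are not reported here. Other genes, mainly further list members, were picked after their values were seen. Settings varied were the pseudocount (0.1 and 0.5), low-value filter, scaling, prior, libraries fitted, X and Y zeros, short RNAs, a replicate block, a 1.2-fold test and each library left out.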

Additional observations from a re-analysis of the deposited data

How the results depend on the processing

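The counts of genes called higher (4426) and lower (3975) stayed within 1.5 times under every alternative but one: against a 1.2-fold difference 2511 were higher and 2119 lower. The count of genes lower by 2-fold or more (400) rose to 707 with a pseudocount of 0.1, which lifts the log2 differences of low genes by construction. Leaving out 1 library at a time gave 4210 to 4335 genes higher and 3760 to 3902 lower. The deviations of same-numbered untreated and antigen libraries had correlations of -0.098, -0.009 and 0.078 over 10471 genes. Those of differently numbered libraries were between -0.134 and 0.160. With 3 libraries per group, these values cannot decide whether a number marks a shared culture or animal. A replicate block gave 4370 higher and 3935 lower. Of the 184 named genes over all alternatives, 3769 values kept direction and side of the threshold, 59 lost the call, 2 gained it and 6 turned direction. Most named genes were picked for large called differences, so these counts do not describe the other calls. Over all calls, quantile normalization kept 76.9% of the higher and 94.8% of the lower genes. The 1.2-fold test kept 56.7% and 53.3%. With the X and Y zeros of antigen replicate 3 kept, Acsl4 went to -0.40, Gla to -0.047 and Tfe3 to -0.46, none of them called, because the zeros enter the mean. Under quantile normalization Fcer1g went to -0.21, Rps12 to -0.13 and Eef1a1 to -0.0028, the cause of which was not tested. Median centring and quantile normalization moved the higher share of the calls from 52.7% to 47.6% and 43.3%. At 20.8 M reads, counting error limits what can be seen in genes near 1 FPKM.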
